A study of Mus musculus with 8 samples.

Results

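The heat shock chaperone genes examined here were 10 genes chosen by symbol: *Hspa1a*, *Hspa1b*, *Hspa5*, *Hspa8*, *Hsp90aa1*, *Hsp90ab1*, *Hsph1*, *Hspb1*, *Hspe1* and *Dnajb1*. All 10 symbols matched an Ensembl identifier among the 53379 genes of the deposited count table, and all 10 were among the 16914 genes that passed the filter on low counts. The RNA came from the cingulate cortex of 4 male *Mvp*+/+ mice (WT) and 4 male *Mvp*-/- mice (Mvp KO) on a C57BL/6 background, none of which was treated. The Mvp KO allele is a gene trap from 1 embryonic stem cell clone, with a β-geo cassette in the first intron of *Mvp*, so every Mvp KO mouse carried that insertion in all tissues. The age of these mice is not given in the sources used here. The study profiled this region to look for pathways that could bear on the changed brain anatomy of mice without the major vault protein, and the chaperones are compared here between the same groups.

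Chaperones bind proteins that are unfolded or still folding, and hold or refold them in cycles driven by ATP. HSP70 proteins take up short hydrophobic stretches of a client, J-domain proteins such as DNAJB1 deliver clients and start ATP hydrolysis, HSP110 proteins such as HSPH1 exchange the nucleotide, and HSP90 proteins finish the folding of kinases and steroid receptors. Some of these genes are switched on by the transcription factor HSF1 when proteins unfold, whereas others are made in all cells at all times, and neurons are known for a high resting level of HSC70 (*Hspa8*) and HSP90 and a low level of the inducible HSP70 pair.

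None of the 10 genes passed the test of a difference between Mvp KO and WT. With edgeR's quasi-likelihood test and Benjamini-Hochberg adjustment over all genes tested, 0 of the 10 passed an adjusted p of 0.05 and the lowest adjusted p among them was 0.969, where 0.00591% of all genes tested passed. At an unadjusted p under 0.05 the count was also 0 of 10, where 1.56% of all genes tested passed. The 10 log2 fold changes (Mvp KO against WT) had a median of -0.085, 4 above 0 and 6 below, beside a median of -2.1e-06 over all genes tested. That median was -0.00276 without WT replicate 4, -0.0337 without Mvp KO replicate 2, as low as -0.165 without another sample (Mvp KO replicate 4), and -0.152 with *Hspa1a* and *Hspa1b* summed. For 7 of the 10 the 95% interval lay inside a 1.5-fold difference in either direction, as it did for 64.5% of all genes tested. For 9 of the 10 it lay inside a 2-fold difference, as it did for 14658 of all 16914 genes tested. A single library, WT replicate 4, had the highest level of 5 of the 10 genes, where it was highest for 29.2% of all genes tested.

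Depth ranged from 28456504 to 42854368 counts per sample. *Mvp*, the targeted gene, had 6.81, 7.12, 7.89 and 5.49 CPM in WT replicates 1 to 4 and 1.45, 1.44, 2.13 and 1.51 CPM in Mvp KO replicates 1 to 4, where CPM are counts put on a per-library scale with edgeR's TMM factors. The groups did not overlap, and the log2 fold change was -2.06 (SE 0.186, adjusted p = 0.0162 with edgeR), as the labels say, with adjusted p from 0.00446 to 0.147 when a sample was left out. With the DESeq2 Wald test on all samples the adjusted p was 7.99e-22. The 6 markers of cortical excitatory neurons summed to between 4369 and 5767 CPM in the 8 samples and the 6 striatal neuron markers to between 90.7 and 181 CPM. Of 5 cerebellar and hippocampal markers, *Pcp2*, which marks cerebellar Purkinje cells, did not pass 0.0499 CPM. The others were detected: *Cbln1* (3.96 to 15.4 CPM), *Zic1* (10.4 to 22.5), *Prox1* (11.9 to 21.1) and *Wfs1* (78.6 to 312). *Cbln1* and *Wfs1* were highest in WT replicate 4, and *Zic1* and *Prox1* were lowest there. In a principal component analysis of log2 CPM, whose leading axis held 46% of the variance, WT replicate 4 stood at 71.5 and the other 7 samples between -20.4 and -2.78. It was kept, and the differences between the genotypes are also given without it wherever it was the highest or the lowest sample for 1 of the 10 genes. The labels do not say what a replicate was beyond its number, so p values measure the spread between these samples. In bulk tissue, fewer cells of a type and less RNA per cell cannot be told apart.

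The promoters of these genes are shown because they hold the letters through which chaperone genes are usually grouped. The heat shock element, which HSF1 binds, is a run of alternating GAA and TTC units, and the endoplasmic reticulum (ER) stress element is read by ATF6 and NF-Y when proteins unfold in the ER. RefSeq windows of GRCm38.p6 with 250 bases before and 50 bases after an annotated start were found for 7 of the 10 genes, and *Hspa8*, *Hsp90aa1* and *Hsp90ab1* had no entry. In the windows printed here from 5′ to 3′, capitals mark matches to the heat shock element or its pairs, and in *Hspa5* the match to the ER stress element.
Hspa1a, chr17:34972107-34972406, minus strand: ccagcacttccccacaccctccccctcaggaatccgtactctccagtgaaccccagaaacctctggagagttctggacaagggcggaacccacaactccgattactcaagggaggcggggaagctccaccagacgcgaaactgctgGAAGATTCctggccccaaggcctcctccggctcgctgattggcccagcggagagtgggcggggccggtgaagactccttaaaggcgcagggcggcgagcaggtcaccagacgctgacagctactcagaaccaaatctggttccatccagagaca
Hspa1b, chr17:34959189-34959488, minus strand: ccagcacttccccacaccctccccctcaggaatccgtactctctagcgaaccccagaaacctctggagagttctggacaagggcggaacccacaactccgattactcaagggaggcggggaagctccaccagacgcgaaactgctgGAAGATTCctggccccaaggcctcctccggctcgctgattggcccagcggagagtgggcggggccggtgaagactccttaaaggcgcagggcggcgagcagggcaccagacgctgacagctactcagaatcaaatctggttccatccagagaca
Hsph1, chr5:149636287-149636586, minus strand: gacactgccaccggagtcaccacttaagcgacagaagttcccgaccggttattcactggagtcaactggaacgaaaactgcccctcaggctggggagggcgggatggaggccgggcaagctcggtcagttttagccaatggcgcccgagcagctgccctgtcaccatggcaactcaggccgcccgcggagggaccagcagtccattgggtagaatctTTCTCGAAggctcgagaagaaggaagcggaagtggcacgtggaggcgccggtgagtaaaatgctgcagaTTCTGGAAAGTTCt
Hspe1, chr1:55087898-55088197, plus strand: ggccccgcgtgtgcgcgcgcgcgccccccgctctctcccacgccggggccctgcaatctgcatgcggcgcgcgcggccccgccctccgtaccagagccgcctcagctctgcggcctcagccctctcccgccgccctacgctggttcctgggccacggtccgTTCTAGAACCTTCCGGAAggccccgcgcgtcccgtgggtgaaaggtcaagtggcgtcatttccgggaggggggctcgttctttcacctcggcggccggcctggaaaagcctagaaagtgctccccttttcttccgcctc
Hspb1, chr5:135887669-135887968, plus strand: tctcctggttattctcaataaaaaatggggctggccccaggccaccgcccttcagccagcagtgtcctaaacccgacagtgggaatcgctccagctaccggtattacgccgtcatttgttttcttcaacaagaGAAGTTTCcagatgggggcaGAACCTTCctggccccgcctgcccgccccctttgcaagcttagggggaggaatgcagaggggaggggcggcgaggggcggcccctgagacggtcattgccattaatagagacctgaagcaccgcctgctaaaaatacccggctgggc
Hspa5, chr2:34771840-34772139, plus strand: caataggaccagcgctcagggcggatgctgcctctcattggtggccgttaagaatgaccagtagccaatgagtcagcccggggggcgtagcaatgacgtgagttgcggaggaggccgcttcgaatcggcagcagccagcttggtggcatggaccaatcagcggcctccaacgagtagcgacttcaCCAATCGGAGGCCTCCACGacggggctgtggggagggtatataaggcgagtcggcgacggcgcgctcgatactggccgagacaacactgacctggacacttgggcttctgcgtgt

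A heat shock element of 3 units, GAANNTTCNNGAA on either strand, was in the windows of *Hspe1* and *Hsph1*, and in 0.603% of all 32851 windows. In *Hspe1* it matched 2 times in overlapping letters, from -89 to -77 and from -84 to -72, where 0 is the base that follows the 250 bases before the start. In *Hsph1* it lay after the start, from 36 to 48 of the first annotated start and from 15 to 27 of the second, which are the same bases. A pair of units, GAANNTTC, was found without a further unit in *Hspa1a* and *Hspa1b* (-104 to -97) and at 2 places in *Hspb1*, and in 7.86% of all windows. The other pair, TTCNNGAA, is part of the 3-unit matches, had 1 further match in *Hsph1* and is in 8.52% of all windows. The ER stress element, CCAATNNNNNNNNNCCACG, matched only in *Hspa5* among the 7 genes, from -65 to -47, and in 0.119% of all windows. *Dnajb1*, with 2 windows, held CCAAT 2 times in the first and none of the heat shock letters in either. *Hspa5* held CCAAT 4 times, 1 of them inside the ER stress element, and CCAAT is in 37.4% of all windows on either strand. No window of the 7 genes held TATAAA on its plus strand, which is in 8.32% of all windows. The windows of *Hspa1a* and *Hspa1b* were identical at 296 of 300 bases (98.7%), with differences at -207, -204, -2 and 25 and an unbroken run of 201 identical bases from -203 to -3. These are exact matches to letters and not measured binding sites.

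**Figure D1:**
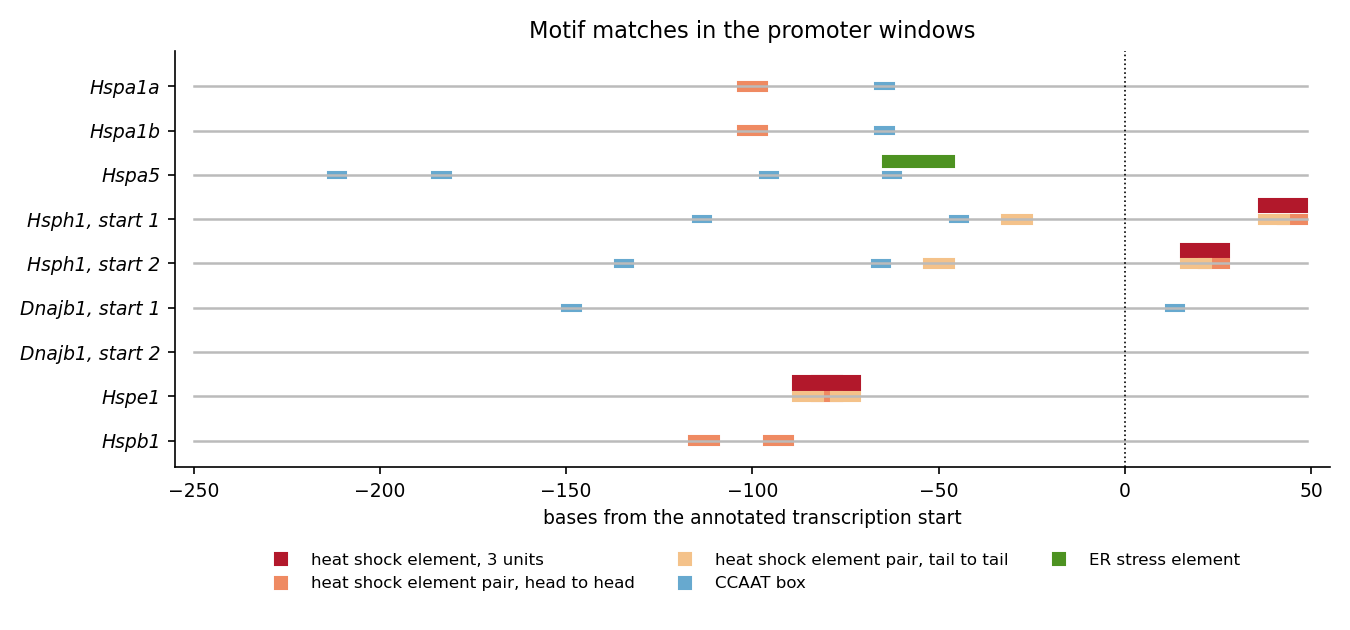
Motif matches in the promoter windows of 7 heat shock chaperone genes, on an axis of bases from the annotated transcription start, with 1 line per window (2 windows each for *Hsph1* and *Dnajb1*). Boxes are exact matches coloured by motif, and the 3-unit heat shock element is seen in *Hspe1* and *Hsph1*, the ER stress element in *Hspa5*, and the same 2 boxes at the same distances in *Hspa1a* and *Hspa1b*.

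Levels were compared between genes per kilobase of annotated exon (RPKM from the TMM scaled CPM). *Hsp90ab1*, the constitutive cytosolic HSP90, was far above the rest at 531 RPKM (mean of 8 samples, range 470 to 707), 6.72-fold over the next gene. *Hspa5* (79.0 RPKM, range 59.8 to 98.8), *Hsph1* (61.0, 50.8 to 95.2), *Hspa8* (51.5, 45.3 to 63.4) and *Hsp90aa1* (45.8, 36.4 to 64.3) followed. The ranges of neighbours in this group overlapped across the samples, and their order changed with the length used, as given below. *Dnajb1* was lower at 25.0 RPKM and *Hspe1* lower again at 6.74 RPKM, and neither range touched that of its neighbours in the order. *Hspa1b* (1.66 RPKM), *Hspa1a* (1.31) and *Hspb1* (1.25) were the lowest and overlapped each other.

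These levels depend on how many reads a gene could receive. By default, a read that maps to several places is not counted by htseq-count, and the setting used is not given in the sources used here. Of all 50-base windows in the longest transcript, 66.3% in *Hspa1a* and 62.3% in *Hspa1b* also occurred in a transcript of another gene (58.8% of those of *Hspa1a* in *Hspa1b*), as did 52.7% in *Hspa8*, 58.5% in *Hsp90aa1* and 51.6% in *Hspb1*. For *Hsp90aa1* and *Hspb1* the main other gene was *Gm12346* and *Hsp25-ps1*, and for *Hspa8* it was *Gm15459*. The share was 8.20% in *Hspe1*, 4.49% in *Hsp90ab1*, 0.441% in *Dnajb1*, and 0% in *Hspa5* and *Hsph1*. Counted per window found in no other gene, *Hspa8* rose to the second place with 151 CPM per kilobase of such windows and *Hsp90aa1* to the third with 134, above *Hsph1* (93.9) and *Hspa5* (92.2), while *Hsp90ab1* stayed first with 674. The levels of *Hspa1a*, *Hspa1b*, *Hspa8*, *Hsp90aa1* and *Hspb1* are therefore uncertain, and so is the division of reads between *Hspa1a* and *Hspa1b*.

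**Figure D2:**
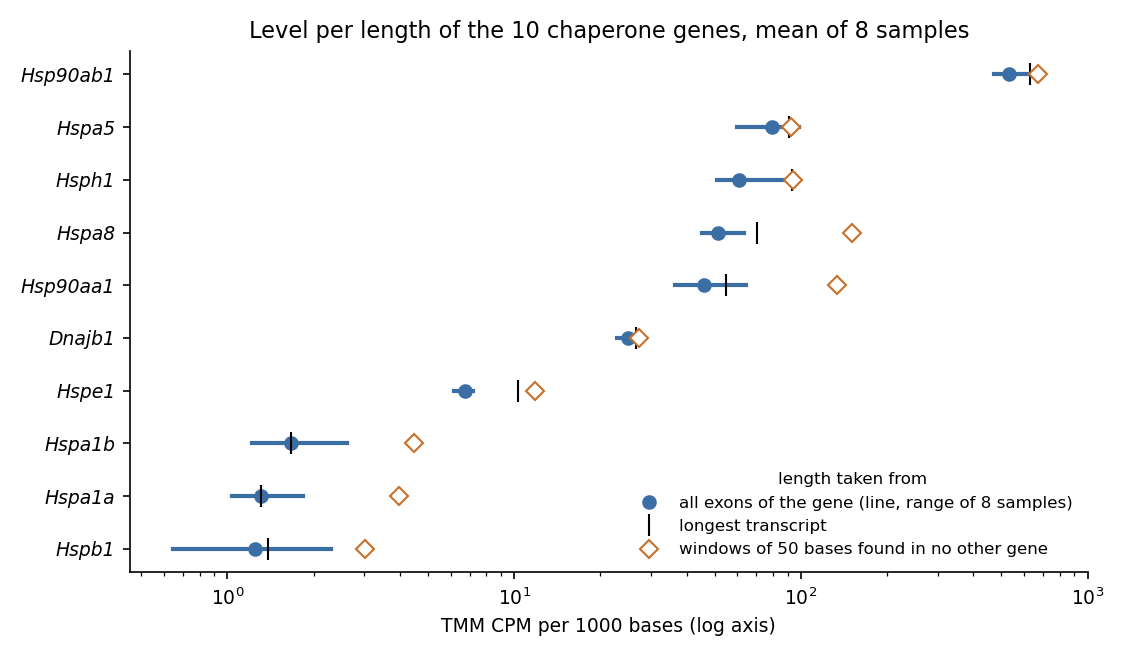
Level per length of the 10 genes as TMM scaled CPM per kilobase on a log axis, with filled points for the mean of 8 samples over all exons and lines for their range. Ticks use the longest transcript and open diamonds the 50-base windows found in no other gene, which move *Hspa8* and *Hsp90aa1* from 51.5 and 45.8 to 151 and 134.

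*Hspa1a* and *Hspa1b* encode the stress-inducible cytosolic HSP70, in nearly the same protein from neighbouring genes without introns. Both were expressed at a low level, with between 99 and 238 counts per sample, and neither passed the test between the genotypes. *Hspa1a* (ENSMUSG00000091971, minus strand of chromosome 17 from 34969190 to 34972156 in GRCm38) had 4.33, 3.68, 3.31 and 4.03 CPM in WT replicates 1 to 4 and 5.46, 3.83, 3.08 and 3.47 CPM in Mvp KO replicates 1 to 4. Mvp KO replicate 1 was the highest and Mvp KO replicate 3 the lowest, and the groups overlapped. Between the genotypes, the log2 fold change was 0.05 (SE 0.197, 95% interval -0.40 to 0.49, adjusted p = 0.982 with edgeR). Over 19.0% of its exon, *Hspa1a* overlaps *Gm20481* on the other strand, whose reads can be told apart only if the counting used strand.

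*Hspa1b* (ENSMUSG00000090877, minus strand of chromosome 17 from 34956436 to 34959238) had 5.28, 5.48, 3.43 and 7.30 CPM in WT replicates 1 to 4 and 4.69, 3.47, 3.58 and 4.07 CPM in Mvp KO replicates 1 to 4. WT replicate 4 was the highest, 1.33-fold above the next sample, WT replicate 3 was the lowest, and the groups overlapped. Its log2 fold change of -0.44 (SE 0.222, 95% interval -0.94 to 0.06) was the largest in size among the 10 genes, with an adjusted p of 0.969 from edgeR. Without WT replicate 4 it was -0.26 (SE 0.190). The adjacent genes, with the nearly identical promoter windows printed above, thus had their highest sample in different genotypes. The counting error was 6.76% to 10.1% in *Hspa1a* and 6.48% to 9.28% in *Hspa1b*. Most of their 50-base transcript windows occur in both, and by default a read from such a window is counted for neither. Summed to a single gene, their log2 fold change was -0.22 (SE 0.185, 95% interval -0.63 to 0.20, adjusted p = 0.969 with edgeR).

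*Hspa8* (ENSMUSG00000015656, plus strand of chromosome 9 from 40800984 to 40810087) encodes HSC70, the constitutive HSP70 that also strips clathrin from synaptic vesicles. It had 217, 223, 232 and 273 CPM in WT replicates 1 to 4 and 195, 201, 214 and 220 CPM in Mvp KO replicates 1 to 4. WT replicate 4 was the highest, 3 of the 4 Mvp KO samples were below every WT sample, and Mvp KO replicate 4 lay between WT replicates 1 and 2. Its log2 fold change of -0.19 (SE 0.0867, 95% interval -0.38 to 0.01) had the lowest unadjusted p of the 10 genes, 0.0571 with edgeR's model across all genes, and an adjusted p of 0.969. Without WT replicate 4 it was -0.11 (SE 0.0635). Over 6.09% of its exons, *Hspa8* shares bases with 3 small nucleolar RNA genes on the same strand (*Snord14c*, *Snord14d* and *Snord14e*).

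*Hsph1* (ENSMUSG00000029657, minus strand of chromosome 5 from 149614287 to 149636376) encodes HSP110, the nucleotide exchange factor of HSC70. It had 401, 410, 400 and 692 CPM in WT replicates 1 to 4 and 390, 369, 424 and 457 CPM in Mvp KO replicates 1 to 4. The other 3 WT samples lay within the range of Mvp KO, and WT replicate 4 stood 1.51-fold above the highest other sample. The log2 fold change was -0.21 with all samples (SE 0.180, adjusted p = 0.969 with edgeR) and 0.03 without WT replicate 4 (SE 0.0787, 95% interval -0.15 to 0.20), so its direction rested on that library.

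The pair of cytosolic HSP90 genes behaved alike in that WT replicate 4 was their highest sample. *Hsp90aa1* (ENSMUSG00000021270, minus strand of chromosome 12 from 110690605 to 110702728), the inducible HSP90α, had 174, 178, 179 and 253 CPM in WT replicates 1 to 4 and 143, 163, 182 and 171 CPM in Mvp KO replicates 1 to 4. Mvp KO replicate 3 was above 3 of the 4 WT samples, so the groups overlapped. The log2 fold change was -0.25 (SE 0.132, 95% interval -0.55 to 0.04, adjusted p = 0.969 with edgeR) and -0.10 (SE 0.0808) without WT replicate 4.

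*Hsp90ab1* (ENSMUSG00000023944, minus strand of chromosome 17 from 45567775 to 45573271), HSP90β, had 1541, 1448, 1591 and 2119 CPM in WT replicates 1 to 4 and 1422, 1410, 1621 and 1576 CPM in Mvp KO replicates 1 to 4. WT replicate 4 was 1.31-fold above the highest other sample, and the other 7 samples were interleaved with a coefficient of variation of 5.75%. This gave a log2 fold change of -0.15 (SE 0.123, 95% interval -0.43 to 0.12, adjusted p = 0.969 with edgeR) and -0.02 without WT replicate 4 (95% interval -0.18 to 0.15).

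*Dnajb1* (ENSMUSG00000005483, plus strand of chromosome 8 from 83608193 to 83612653) encodes HSP40, the J-domain partner of the inducible HSP70. It had 85.3, 79.7, 73.3 and 77.3 CPM in WT replicates 1 to 4 and 83.6, 75.4, 78.1 and 87.2 CPM in Mvp KO replicates 1 to 4. The groups were interleaved, no sample stood apart, and the highest sample was 1.19-fold over the lowest. In Mvp KO against WT, the log2 fold change was 0.04 (SE 0.0733, 95% interval -0.13 to 0.20, adjusted p = 0.969 with edgeR). Of the 10 genes, *Dnajb1* and *Hspe1* had the narrowest spread over the 8 samples, with coefficients of variation of 6.16% and 5.25%. The median was 9.7% over genes with a mean of at least 10 CPM, a level that *Hspe1* just missed, and 13.8% over all genes tested.

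*Hspe1* (ENSMUSG00000073676, plus strand of chromosome 1 from 55088132 to 55091307) encodes HSP10, the lid of the mitochondrial chaperonin HSP60 (*Hspd1*). It had 9.35, 9.95, 9.80 and 9.08 CPM in WT replicates 1 to 4 and 10.6, 10.4, 10.1 and 10.2 CPM in Mvp KO replicates 1 to 4. On the TMM scale all 4 Mvp KO samples were above all 4 WT samples, the only one of the 10 genes whose groups did not overlap, where 1.52% of all genes tested did not, and with CPM by library total its groups overlapped too. The gap was small, with means of 9.54 ± 0.400 CPM in WT and 10.3 ± 0.241 CPM in Mvp KO (SD, n = 4 each). The counts behind these values were 286 to 432 per sample, with a counting error of 4.81% to 5.91% that is close to the spread between the samples. An exact permutation test gave p = 0.0286 (two-sided), the smallest that 4 against 4 samples can give, and it was 1 of 10 such tests. In edgeR's fit the log2 fold change was 0.11 (SE 0.0878, 95% interval -0.08 to 0.31, adjusted p = 0.969), so the difference did not pass, and without WT replicate 4 it was 0.09 (SE 0.0840). *Hspd1*, its partner, which overlaps 7.60% of the exons of *Hspe1* on the other strand, had 80.2, 73.8, 75.4 and 84.4 CPM in WT replicates 1 to 4 and 70.3, 75.1, 73.6 and 72.2 CPM in Mvp KO replicates 1 to 4. Its groups overlapped, and its log2 fold change was -0.11 (SE 0.0643, adjusted p = 0.969 with edgeR), with the opposite sign.

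*Hspb1* (ENSMUSG00000004951, plus strand of chromosome 5 from 135887919 to 135889563) encodes HSP25, a small heat shock protein that holds unfolded proteins without ATP. It was close to the limit of counting, with between 21 and 95 counts per sample. It had 1.74, 1.68, 0.893 and 0.667 CPM in WT replicates 1 to 4 and 2.37, 0.943, 0.684 and 1.30 CPM in Mvp KO replicates 1 to 4. Mvp KO replicate 1 was the highest and WT replicate 4 the lowest, and the groups overlapped over nearly their whole range. The log2 fold change was 0.08 (SE 0.435, 95% interval -0.89 to 1.06, adjusted p = 0.983 with edgeR) and -0.11 without WT replicate 4 (SE 0.419), and the interval took in a 2-fold higher level in Mvp KO. The 6 mural cell markers, cells of the vessel wall, summed to 171, 210, 193 and 164 CPM in WT replicates 1 to 4 and 279, 211, 135 and 144 CPM in Mvp KO replicates 1 to 4, also highest in Mvp KO replicate 1. The sums of the oligodendrocyte markers (5608 CPM) and the leptomeningeal fibroblast markers (67.6 CPM) were highest in that sample too. The part of any of these cells in the level of *Hspb1* was not tested.

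*Hspa5* (ENSMUSG00000026864, plus strand of chromosome 2 from 34771970 to 34777547) encodes BiP, the HSP70 of the ER and the sensor that keeps the unfolded protein response off. It had 375, 290, 327 and 353 CPM in WT replicates 1 to 4 and 311, 253, 346 and 418 CPM in Mvp KO replicates 1 to 4. The highest and the lowest sample were both Mvp KO (replicates 4 and 2), so the WT range lay inside that of Mvp KO, and WT replicate 4 had 2 samples above it. The log2 fold change was -0.02 (SE 0.146, 95% interval -0.35 to 0.31, adjusted p = 0.988 with edgeR) and 0.01 without WT replicate 4. Over the 7 samples other than WT replicate 4, its coefficient of variation was 16.5%, beside 6.97% for the median gene with a mean of at least 10 CPM.

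**Figure D3:**
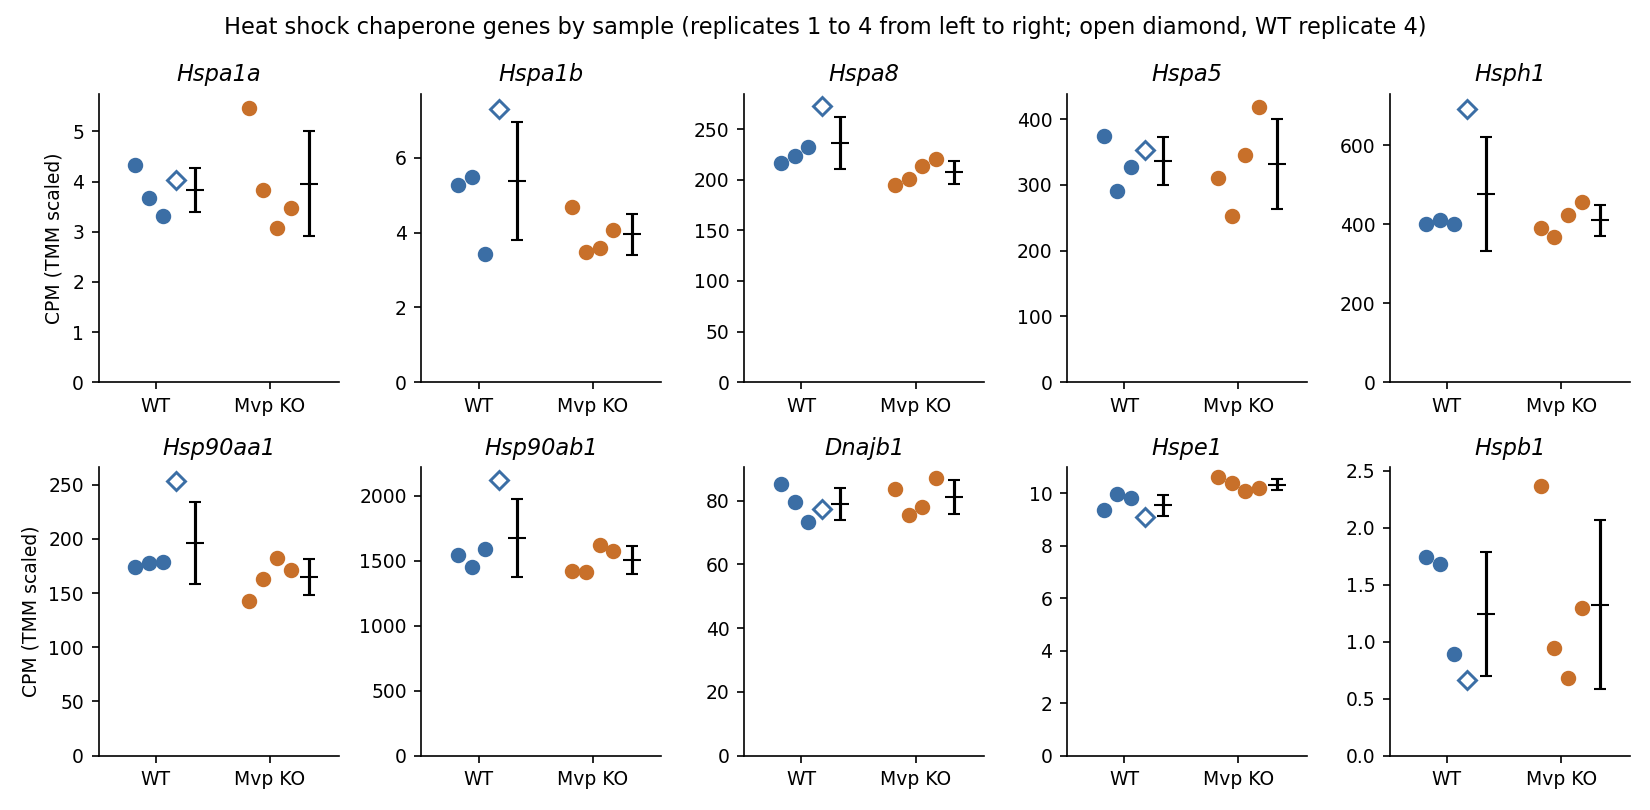
Normalized expression of the 10 genes in each sample as TMM scaled CPM (y axes start at 0 and differ between panels), with WT in blue, Mvp KO in orange, and bars for the mean and SD of 4 samples. The open diamond is WT replicate 4, the highest sample for *Hspa1b*, *Hspa8*, *Hsph1*, *Hsp90aa1* and *Hsp90ab1*, and *Hspe1* is the only gene whose groups do not overlap on this scale (they overlap with CPM by library total).

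**Figure D4:**
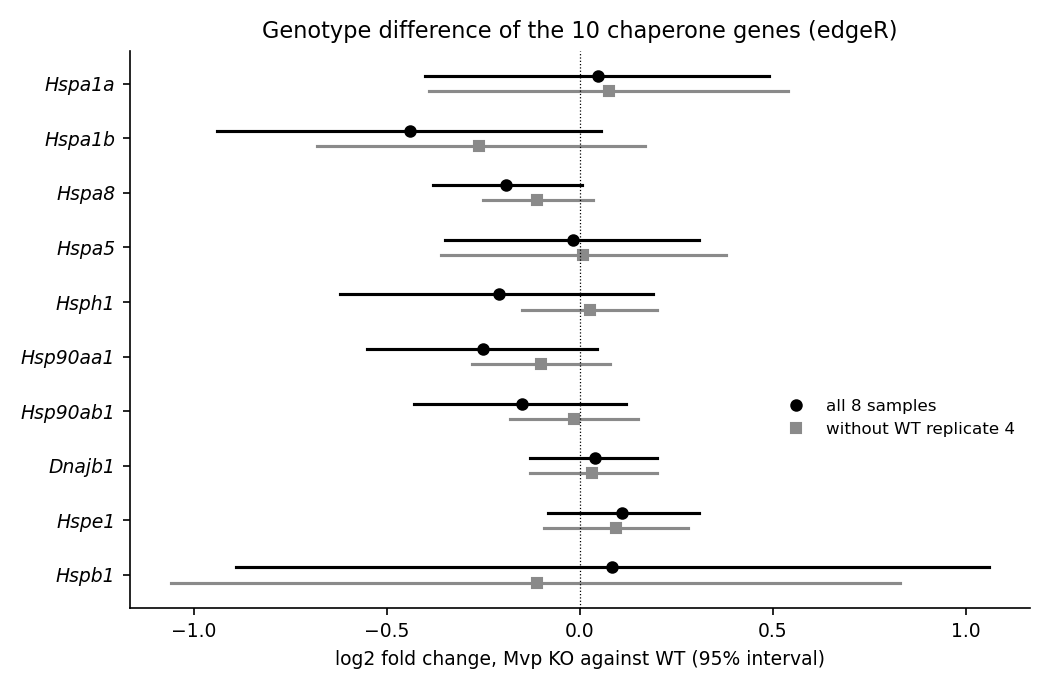
Log2 fold changes of Mvp KO against WT for the 10 genes with their 95% intervals from edgeR, from all 8 samples (black circles) and without WT replicate 4 (grey squares). All 20 intervals include 0, and the values of *Hsph1* move from -0.21 to 0.03 and those of *Hsp90ab1* from -0.15 to -0.02 when that library is left out.

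*Hspa5* was also compared with the other genes of its compartment. Over the 7 samples without WT replicate 4, its log2 CPM had a Pearson r above 0.8 with 11 of 21 ER stress response genes, where 11.2% of 10041 genes with a mean of at least 10 CPM had one as high. With WT replicate 4 included, 5 of the 21 had one (*Hyou1*, *Calr*, *Dnajb11*, *Pdia6* and *Xbp1*), beside 3.54% of those genes. The median r was 0.84 on the list and 0.10 over those genes in 7 samples, and 0.55 and 0.06 in 8. The closest in 7 samples were *Pdia6* (r = 0.99, and 0.87 over 8 samples) and *Pdia4* (0.96, and 0.66), 2 disulfide isomerases, with *Creld2* (0.97, and 0.51), *Hyou1* (0.94 over both), the HSP110 of the ER, and *Calr* (0.94, and 0.93), the lectin chaperone calreticulin. The r of *Creld2* and *Pdia4* thus rested on leaving out WT replicate 4. Mvp KO replicate 4 was the highest of these 7 samples for 10 of the 21 genes and Mvp KO replicate 2 the lowest for 10, beside 17.6% and 19.7% of all genes tested. *Atf4* (r = -0.86) and *Edem1* (-0.76), also on the list, went the other way. None of the 21 genes passed the test between the genotypes (0 at an adjusted p and 0 at an unadjusted p under 0.05 with edgeR), and their median log2 fold change was -0.00117. The points share libraries and depth, and these r values are a description. The letters of the ER stress element printed above are in the *Hspa5* window alone among the 7 genes with one.

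By the rule for likeness over all 8 samples, the genes closest to *Hspa5* were *Shisal1* (r = 0.996), *Trp53i11* (0.983), *Celf6* (0.982), *Sowaha* (0.980) and *Fam53c* (0.974). Among those closest to the mean standardized level of the other stress-inducible genes (*Hspa1a*, *Hspa1b*, *Dnajb1*, *Hsph1*, *Hsp90aa1*, *Hspe1* and *Hspb1*) were *Uchl3* (r = 0.960), *Akirin2* (0.936), *Ptov1* (0.925) and *Terf1* (0.912). Of each 5, only 1 was among the closest 5 when WT replicate 4 was left out: *Shisal1* (0.996 over 7 samples) and *Uchl3* (0.943). The stress-inducible genes behind that mean did not move together. Over the 8 samples *Hsp90aa1* had r = 0.895 with *Hsph1*, but -0.834 with *Hspe1* and -0.682 with *Hspb1*. Over the 7 samples without WT replicate 4, these r values were 0.412, -0.68 and -0.616. The mean of the stress-inducible genes is therefore not a level that they share.

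Among the 10 genes themselves, no pair passed a test of rising and falling together. WT replicate 4 stood apart, so the 45 pairs were compared over the other 7 samples, with exact permutation tests adjusted over the 45 pairs. The lowest p was that of *Hspa1a* with *Hspb1* (Pearson r = 0.857, exact permutation p = 0.00952, adjusted 0.237; Spearman rho = 0.893, exact permutation p = 0.0123, adjusted 0.384, n = 7), and r was 0.593 without the 2 samples farthest from the median of *Hspa1a*. *Hspa8* with *Hsp90aa1* had r = 0.848 (exact permutation p = 0.0105, adjusted 0.237) and rho = 0.607 (exact permutation p = 0.167, adjusted 0.469), with r = 0.123 without the 2 farthest samples, so that relation rested on them. The r largest in size was negative, that of *Hspa1a* with *Hsp90aa1* (r = -0.867, exact permutation p = 0.0228, adjusted 0.29). Its rho was -0.821 (exact permutation p = 0.0341, adjusted 0.384), and r was -0.284 without the 2 samples farthest from the median of *Hspa1a*.

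No other gene of the chaperone system passed the test between the genotypes either. On 9 lists of other chaperones and their regulators there were 97 genes, of which 95 were tested. None passed an adjusted p of 0.05 and none an unadjusted p of 0.05 with edgeR, none had groups that did not overlap, and the median log2 fold change was -0.02, with 34 above 0 and 61 below. In 85 of the 95 the 95% interval lay inside a 1.5-fold difference in either direction, beside 64.5% of all genes tested.

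Among the 10 other HSP70 and HSP110 genes, the log2 fold changes ran from -0.14 (*Hspa13*) to 0.06 (*Hspa12a*). *Hspa4*, another cytosolic HSP110, had between 297 and 369 CPM in WT and between 276 and 324 CPM in Mvp KO. *Hspa1l*, the testis form of HSP70 next to *Hspa1a*, did not pass 0.375 CPM in any sample. The 2 other HSP90 genes, *Hsp90b1* of the ER and *Trap1* of mitochondria, had log2 fold changes of -0.05 and -0.07. *Hspa9*, the mitochondrial HSP70, had between 212 and 254 CPM in WT and between 192 and 251 CPM in Mvp KO, and the 9 genes of mitochondrial folding had a median log2 fold change of -0.03.

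The 21 other J-domain genes, which pass clients to HSP70, had a median log2 fold change of -0.01, from -0.25 (*Dnajb5*) to 0.09 (*Dnajc21*). *Dnajc6*, the auxilin that brings HSC70 to clathrin-coated vesicles, had 465, 442, 479 and 687 CPM in WT replicates 1 to 4 and between 404 and 509 CPM in Mvp KO. Its highest sample was WT replicate 4, with a log2 fold change of -0.16 (SE 0.144, adjusted p = 0.969 with edgeR). The 20 co-chaperones and nucleotide exchange factors had a median of -0.04, from -0.12 (*Bag1*) to 0.08 (*Ahsa2*). *Hsf1*, the transcription factor that turns on the heat shock genes, had 34.4, 34.5, 37.9 and 35.2 CPM in WT replicates 1 to 4 and between 33.3 and 40.4 CPM in Mvp KO, with overlapping groups and a log2 fold change of 0.03 (SE 0.0771, adjusted p = 0.976 with edgeR). *Hsf2*, a second heat shock factor, had a log2 fold change of -0.02 (SE 0.0580).

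The small heat shock proteins held the widest log2 fold changes on these lists, and neither passed the test. *Cryab*, αB-crystallin, which oligodendrocytes and astrocytes express, had 41.2, 42.7, 49.4 and 33.9 CPM in WT replicates 1 to 4 and 85.9, 64.2, 39.7 and 37.7 CPM in Mvp KO replicates 1 to 4. Mvp KO replicates 1 and 2 were above every WT sample and replicates 3 and 4 were within the WT range. Its log2 fold change was 0.45 (SE 0.254, adjusted p = 0.969 with edgeR). The 7 oligodendrocyte markers, all of them detected, summed to 1716, 2147, 2775 and 1311 CPM in WT replicates 1 to 4 and 5608, 3832, 1934 and 1513 CPM in Mvp KO replicates 1 to 4, with a median log2 fold change of 0.67, and 0 of the 7 passed an unadjusted p of 0.05. *Cryab* and these markers had the same highest, second highest and lowest samples, and the part of oligodendrocytes in the level of *Cryab* was not tested. *Hspb3* had the lowest log2 fold change, -1.17 (SE 0.677, adjusted p = 0.969 with edgeR), with 6.48 CPM in WT replicate 4 and between 0.691 and 1.5 CPM in the other 7 samples. *Cryaa* and *Hspb9* did not pass the filter, with at most 0.508 and 0.023 CPM.

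WT replicate 4 was the highest of the 8 samples for *Hspa1b*, *Hspa8*, *Hsp90aa1*, *Hsp90ab1* and *Hsph1*, 5 of the 10 genes, beside the 29.2% of all genes tested given above. For 4 of the 10 (all of these except *Hspa8*) it was at least 1.2-fold above every other sample, where this held for 12.6% of all genes tested. Against the median of the other 7 samples, it was 1.79-fold higher for *Hspa1b*, 1.73-fold for *Hsph1*, 1.45-fold for *Hsp90aa1*, 1.37-fold for *Hsp90ab1* and 1.26-fold for *Hspa8*. *Hspa1a*, *Hspa5* and *Dnajb1* were within the range of the other samples there, and *Hspe1* and *Hspb1* were lowest, at 0.899 and 0.513 of that median. Of the genes with heat shock letters in their promoter windows, *Hspa1b* and *Hsph1* were the furthest above in WT replicate 4. *Hspa1a* was within the range of the other samples, and *Hspe1* and *Hspb1* were lowest. *Hspa8*, *Hsp90aa1* and *Hsp90ab1* had no window and cannot be placed. The relation of these letters to the levels in WT replicate 4 was not tested.

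The chaperonins, barrel-shaped machines that enclose a protein while it folds, had the same highest sample on the TMM scale. All 9 chaperonin genes (HSP60 and 8 subunits of the ring that folds actin and tubulin) were highest in WT replicate 4 with TMM, but 4 of the 9 with CPM by library total, and with TMM they stood between 1.1-fold and 1.34-fold (*Cct8*) above the median of the other samples. *Cct8* had 231, 213, 218 and 297 CPM in WT replicates 1 to 4 and between 217 and 228 CPM in Mvp KO. Over all genes tested, the same sample was highest for 29.2% with TMM and for 17.7% with CPM by library total. With TMM it was highest for 8 of 21 other J-domain genes and 10 of 20 co-chaperones. It was also highest for 3 of 10 other HSP70 genes and 7 of 21 ER stress response genes, which is near the share of all genes. With CPM by library total these counts were 4, 3, 2 and 2, near or below the share of all genes. With that scaling, the 5 genes were still highest in WT replicate 4, beside 17.7% of all genes tested, and the median gene of WT replicate 4 lay at -0.19 (log2) against the median of the other samples, in place of -0.04. At least 1.2-fold above every other sample were then 2 of the 10 genes, *Hsp90aa1* and *Hsph1*, beside 7.78% of all genes tested.

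Other groups of genes were also apart in WT replicate 4. Immediate early genes, which neurons switch on within minutes of activity, were highest there in 9 of 10 (7 of 10 with CPM by library total), with *Egr1* at 623 CPM beside 208 to 421 CPM in the other samples and a median of 2.35-fold over the other samples for the list. The 6 interneuron markers summed to 1762 CPM there and to between 824 and 1012 CPM in the other 7 samples. Of the 6, 4 were highest there, with *Gad2* at 545 CPM beside 154 to 205 CPM, while *Vip* was at its lowest with 63.3 CPM beside 70.4 to 90.2 CPM. Of the 6 striatal markers 4 were also highest there, with *Adora2a*, an adenosine receptor, at 18.4 CPM beside 1.8 to 2.64 CPM and *Ppp1r1b* at 101 CPM beside 29.9 to 44.4 CPM. The 7 oligodendrocyte markers were at their lowest sum there. *Sst*, a marker of interneurons, was the only gene on the marker lists at an unadjusted p under 0.05 and the only one whose groups did not overlap (166, 191, 167 and 310 CPM in WT replicates 1 to 4, and 151, 124, 160 and 149 CPM in Mvp KO replicates 1 to 4, log2 fold change -0.52, SE 0.196, adjusted p = 0.969 with edgeR). The part of these differences in the chaperone levels of WT replicate 4 was not tested.

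**Figure D5:**
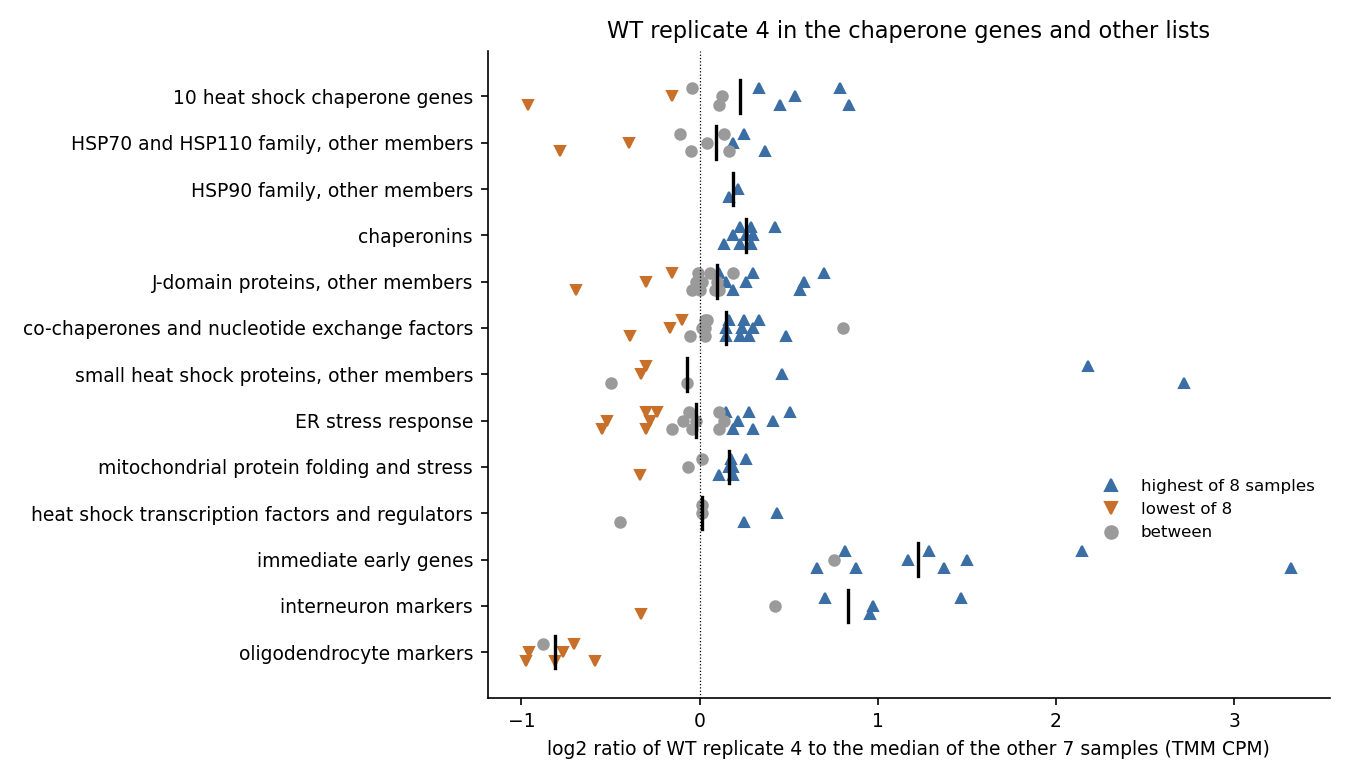
Log2 ratio of WT replicate 4 to the median of the other 7 samples (TMM scaled CPM) for the 10 genes and for genes on 12 lists, with 1 symbol per tested gene and a bar at the median of each list. Triangles up and down mark genes for which this library was the highest or the lowest of 8 samples: 5 and 2 of the 10 chaperone genes, all 9 chaperonins (4 with CPM by library total), and 9 of 10 immediate early genes (7 with CPM by library total).

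Lists that follow temperature, time of day and stress hormones were read beside the chaperones. The 2 cold-inducible genes, *Cirbp* and *Rbm3*, had log2 fold changes of -0.04 and 0.09 between the genotypes. The 10 circadian output genes had a median log2 fold change of 0.10 and the 8 glucocorticoid-responsive genes one of -0.16, and 0 of these 20 genes passed an unadjusted p of 0.05 with edgeR. In WT replicate 4, 5 of the 10 circadian genes were at their lowest, where 32.5% of all genes tested were, among them *Hlf* with 132 CPM beside 225 to 356 CPM in the other samples. A further 2 were highest there, *Per2* with 106 CPM beside 37.2 to 74.2 CPM and *Per3* with 86 CPM beside 56 to 69.1 CPM.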

How the data were processed

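Gene counts of the cingulate cortex of 4 WT and 4 Mvp KO male mice were analysed. Per the labels and the paper, the authors made stranded libraries of polyadenylated RNA, trimmed reads with cutadapt 1.10, removed others with Bowtie2 2.2.8, mapped to mm10 with STAR 2.5.3a, counted with HTSeq 0.6.1p1, and deposited raw counts per gene without normalization. Samples were grouped by their titles. Symbols and coordinates came from GENCODE vM21 (53274 of 53379 identifiers matched).

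The 16914 genes kept by filterByExpr were scaled by TMM in edgeR 4.0.16 (R 4.3.3) and compared by genotype alone with the quasi-likelihood test and Benjamini-Hochberg adjustment over all of them, after a check on simulated counts. Single genes were also compared by exact permutation over 70 arrangements, and log2 CPM used a prior count of 2. Depth of 28456504 to 42854368 counts makes counting error small except for *Hspb1*, *Hspe1* and the *Hspa1* pair. A gene at 0 counts could still be present at up to 3 counts in a library. Alternatives were DESeq2 1.42.0 (size factors and Wald test), limma voom 3.58.1, other filters, non-robust dispersions, a threshold of 0.1, a replicate block, leaving out each sample, *Hspa1a* and *Hspa1b* summed, and other lengths and scalings. Exact motif matches were sought in RefSeq promoter windows, and 50-base windows in GENCODE transcripts. Tables were made in pandas 2.3.3 under Python 3.11.15, and plots in matplotlib 3.10.9.

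The 10 genes and the lists were chosen with earlier results of these data known. Named were the 10 genes, *Mvp*, list genes at an unadjusted p under 0.05 or with groups apart, up to 3 of the highest genes per list, and the 5 genes most like each of 2 profiles, and an item that falls under this rule is not reported here. Other list genes with values in the text, such as *Hspb3*, *Cryaa*, *Hspb9*, the lowest and highest of a list, *Pdia6*, *Pdia4*, *Creld2*, *Hyou1*, *Atf4*, *Edem1*, *Dnajb11*, *Xbp1*, *Per2*, *Per3*, *Gad2*, *Vip*, *Adora2a*, *Ppp1r1b*, *Pcp2*, *Cbln1* and *Hspa1l*, were named after their values had been seen.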

Additional observations from a re-analysis of the deposited data

Results flagged for a closer look

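In 22 groups of 4 samples (10 chaperone genes and *Mvp* in each genotype), 3 held a sample that stood far from the other 3, by a rule that chance meets in about 1 of 20 groups, or 1.1 of 22. *Hsp90aa1* had 253 CPM in WT replicate 4 and between 174 and 179 CPM in the other 3 WT samples, a gap of 0.929 of the range. *Hsph1* had 692 CPM in WT replicate 4 and between 400 and 410 CPM in the other 3 WT samples, a gap of 0.965 of the range. *Mvp* had 2.13 CPM in Mvp KO replicate 3 and between 1.44 and 1.51 CPM in the other 3 Mvp KO samples, a gap of 0.903 of the range.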

How the results depend on the processing

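None of the 10 genes and none of the 95 tested genes of the chaperone lists passed an adjusted p of 0.05 under any alternative run, the looser threshold of 0.1 included, and both counts were also 0 in each fit that left out a sample. The number of the 10 genes at an unadjusted p under 0.05 was 0 and ran from 0 to 1 when a sample was left out: *Hspa8* without WT replicate 1 (log2 fold change -0.23, adjusted p = 0.872 with edgeR) and *Hspa1b* without WT replicate 3 (-0.61, adjusted p = 0.926 with edgeR). The median log2 fold change of the 10 genes ran from -0.165 to -0.00276 over the fits that left out a sample. In limma voom with sample weights, *Hspa1a* (-0.0341), *Hspa5* (0.0637), *Hsph1* (0.0399) and *Hspb1* (-0.277) changed sign. Over the fits without a sample, those that changed sign ran from -0.149 to 0.148 (*Hspa1a*), -0.151 to 0.0884 (*Hspa5*), -0.296 to 0.0274 (*Hsph1*) and -0.367 to 0.302 (*Hspb1*). The cause was not tested, and none of these values passed a test in any fit. *Mvp* ran from -2.22 to -1.99, with adjusted p from 0.00446 to 0.147, and did not pass 0.05 without WT replicate 1, 2 or 3 or without Mvp KO replicate 1, 2 or 4. With all samples, the adjusted p of *Mvp* was 7.99e-22 with the DESeq2 Wald test and 0.00123 with limma voom. It was 0.000291 with edgeR without the filter on low counts. Same-numbered samples of the 2 genotypes did not deviate together throughout (correlations of 0.0548, 0.287, -0.00671 and 0.0507 for numbers 1 to 4). These values cannot decide whether the numbers pair the samples, because the labels do not say what a number stands for. With the replicate number as a block, 1 of the 10 genes had an unadjusted p under 0.05 (*Hspa8*, -0.18, adjusted p = 0.953 with edgeR), and *Mvp* was -2.07 with an adjusted p of 0.085. Over 7 samples, 1 of the 5 genes most like *Hspa5* and 1 of the 5 most like the inducible genes were still among the closest 5. Of the 10 genes, 6 kept their rank of level per length with the longest transcript and 6 with windows shared with no other gene, a choice made after seeing the data. The chaperonins highest in WT replicate 4 were 9 with TMM and 4 with CPM by library total, and the genes of the 10 whose groups did not overlap were 1 (*Hspe1*) and 0, also chosen after seeing the data.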
